A study of Mus musculus with 2 samples.

Results

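The proteasome genes were described in mouse primary T cells stimulated through the T cell receptor complex and its costimulatory receptor with antibodies against CD3 and CD28. The 2 groups were stimulated cells without and with triptolide (50 ng/ml), a plant diterpenoid that binds the XPB subunit of the general transcription factor TFIIH. Each group was measured on 1 Affymetrix 3′ array of total RNA, so no test between the groups was possible and every fold below compares 2 arrays rather than 2 conditions. Cells were kept in culture for 18 h, while the sources used here do not give mouse strain, age, number of animals or the length of the triptolide exposure. Members were all genes on the array whose symbol starts with Psma, Psmb, Psmc, Psmd, Psme, Psmf or Psmg and that had at least 1 probe set annotated to that gene alone, without the inducible catalytic subunits encoded in the major histocompatibility complex. The rule found 47 of the 18193 genes, with 100 probe sets. It also took in Psmc3ip, a recombination cofactor, and Psme3ip1, which are named for a proteasome partner and are no subunits. They are counted among the members, and the counts without them follow the main ones. Psme2 and Psme2b share their probe set and are not analysed here.

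The proteasome is the protease that degrades ubiquitin-tagged proteins in the cytosol and nucleus. Its barrel-shaped core particle, the 20S proteasome, consists of outer rings of alpha subunits, which gate the entry, and inner rings of beta subunits, some of which carry the catalytic threonine. The 19S regulatory particle caps the core: its base holds a ring of ATPases that unfold substrates and its lid removes ubiquitin. Dedicated chaperones build the core and the base and then leave, and alternative activators can take the place of the cap. In lymphocytes the inducible catalytic subunits and the PA28 activator are known to respond to interferon-gamma and to shape the peptides presented on MHC class I.

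With triptolide, most proteasome genes had scaled signals close to those of the stimulated array, and 3 genes stood lower by at least 2-fold. These were Psmc6, an ATPase of the 19S base, and Psmg2 and Psmg4, chaperones of core assembly. Scaled signals are relative to the other transcripts of an array and give no amount of mRNA per cell. A general fall or rise of mRNA would not be seen in them. The probe set with the highest mean signal (log2) stood for its gene, and a gene counted as detected with a signal above 118, the level set by probe sets of chemosensory receptor genes, on at least 1 array. Of the 47 members 45 were detected, all of them above that floor on both arrays and with a brighter signal of at least 474, which is 4 times the floor. The remaining members were Psma8, a testis form of an alpha subunit, with signals of 52.1 without and 28.9 with triptolide, and Psmb11, the thymic cortical beta subunit, with signals of 33.6 and 29.5.

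Of the 45 detected members, none was at least 2-fold higher, against 5.63% of all 10968 detected genes, and 3 (6.67%) were at least 2-fold lower, against 12.5% of all detected genes. At a limit of 1.5-fold, 1 member (2.22%) was higher, against 13.4% of all detected genes, and 7 (15.6%) were lower, against 26.9%. The other 37 members (82.2%) lay within 1.5-fold, as did 59.7% of all detected genes and 54.5% of the 6153 genes with a brighter signal of at least 474. Among those brighter genes 6.86% were at least 2-fold higher and 15.8% lower, and 14.7% and 30.8% at 1.5-fold. The SD of the log2 ratios was 0.47 across the members, 0.77 across all detected genes and 0.87 across the brighter genes. Ratios of the members were thus packed more closely than those of the array as a whole, a description of these arrays that was not tested. The compared sets also differ: all detected members exceeded the floor on both arrays, while the other genes needed to do so on 1 array only. The median log2 ratio was -0.10 over the members and -0.16 over all detected genes, and 21 members had a ratio above 0 and 24 below 0. Without Psmc3ip and Psme3ip1, 43 members were detected, of which 81.4% lay within 1.5-fold, with a median of -0.11 and with 19 ratios above 0 and 24 below.

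**Figure D1:**
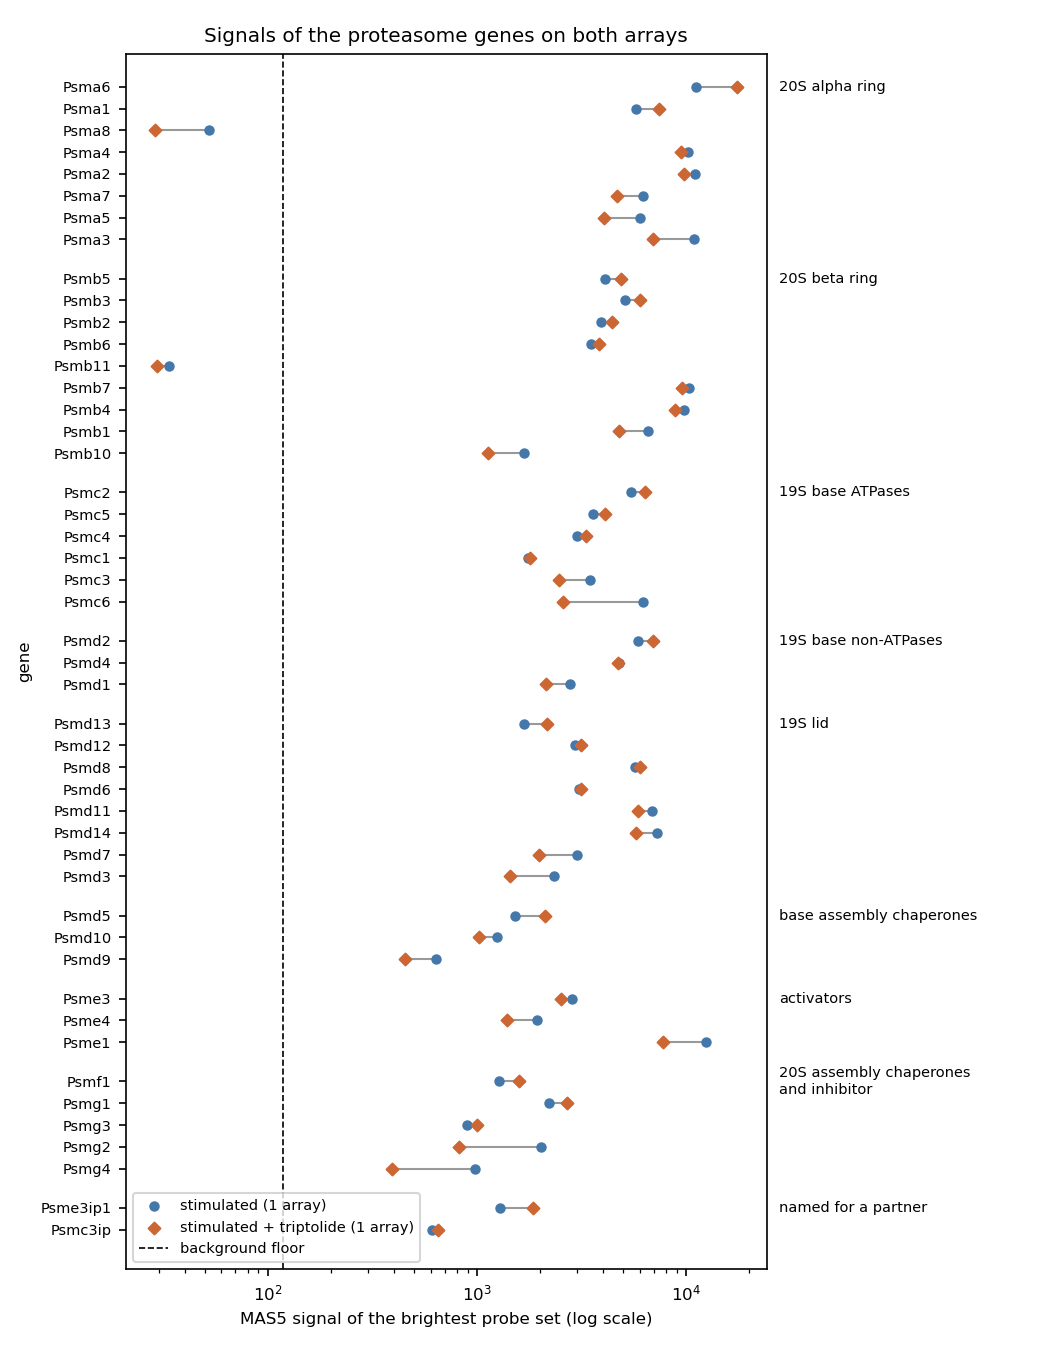
MAS5 signal of the brightest probe set of each of the 47 members, Psmc3ip and Psme3ip1 included (log scale), with circles for the stimulated array and diamonds for the array with triptolide, ordered by log2 ratio within each class. The dashed line is the background floor of 118, the longest lines between symbols above it belong to Psmc6, Psmg2 and Psmg4, and levels are not comparable between genes.

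**Figure D2:**
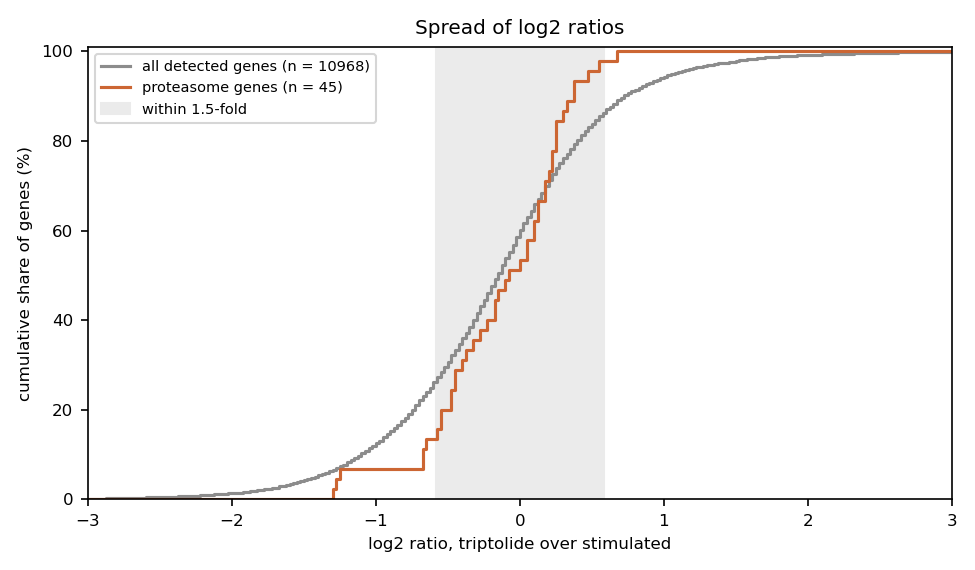
Cumulative share of genes (%) against their log2 ratio of triptolide over stimulated, for the 45 detected members (Psmc3ip and Psme3ip1 included) and for all 10968 detected genes, with the band within 1.5-fold shaded. The curve of the proteasome genes is steeper, with 82.2% of them inside the band against 59.7% of all detected genes.

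Upstream sequence is shown for Psmc6 and Psmg4, which lay past 2-fold, while Psmg2, also past 2-fold, is not shown. The 150 bases before each annotated start are printed 5′ to 3′ on the gene's strand, from RefSeq's promoter table of GRCm38.p6. Psmc6 lies on the plus strand at chr14:45329674-45329823 and Psmg4 on the plus strand at chr13:34162814-34162963. Capitals mark the GC box GGGCGG on either strand, the letters bound by Sp1-type factors.
Psmc6: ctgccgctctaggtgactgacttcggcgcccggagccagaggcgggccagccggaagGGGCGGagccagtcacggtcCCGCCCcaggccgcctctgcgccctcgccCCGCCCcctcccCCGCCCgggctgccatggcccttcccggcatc
Psmg4: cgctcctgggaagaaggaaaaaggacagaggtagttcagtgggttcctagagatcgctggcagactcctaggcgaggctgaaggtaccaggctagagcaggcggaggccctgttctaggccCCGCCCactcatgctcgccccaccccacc
The stretch of Psmc6 is dense in GC boxes and that of Psmg4 holds a single one near its start. Several GC boxes are not particular to Psmc6: Psma4 and Psma7, which lay within 1.5-fold, hold several as well.

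The antioxidant response element, searched as TGACNNNGC on both strands, was taken next because NFE2L1 and NFE2L2 bind such elements. NFE2L1 is known to drive proteasome genes when protease activity is limiting. Promoter entries of 300 bases, from 250 before to 50 after the start, were found for 39 of the 47 members, with 42 entries in all because some genes have several starts. The letters were present in 6 of the 42 entries (14.3%) and in 12.4% of all 32851 entries. The matches of the catalytic subunits and of the member past 2-fold are printed with flanks of at most 16 bases and with the motif in capitals.
Psmb5 (chr14:54618018-54618058, minus strand): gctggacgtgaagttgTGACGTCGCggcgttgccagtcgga
Psmb6 (chr11:70525332-70525356, plus strand): ggcggactaaagagagTGACGGAGC
Psmc6 (chr14:45329581-45329621, plus strand, motif on the reverse strand): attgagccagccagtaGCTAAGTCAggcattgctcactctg
The other matches were in Psmd9, where the letters overlap a GC box, and in Psmd12 and Psme4. The 6 genes with a match had a median log2 ratio of -0.18 and the 32 detected genes without one had 0.03. The letters were held by genes on both sides of 0: Psmb5 and Psmb6 had log2 ratios of 0.25 and 0.11, and Psmc6 had -1.26.

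The interferon-stimulated element, searched as GAAA, a pair of arbitrary bases and GAAA on both strands, was present in 5 of the 42 entries (11.9%) and in 3.44% of all entries. It was searched because the PA28 activator and the inducible catalytic subunits respond to interferon. The matches of the lowest members that held it are printed with 8 bases on each side, and both lie just after the start.
Psme1 (chr14:55578495-55578520, plus strand, motif on the reverse strand): agctgtgcTTTCGCTTTCccttcccg
Psmg4 (chr13:34162971-34162996, plus strand): gcgcatctGAAAGTGAAAgagcgttc
The 5 genes were Psmg4, Psme1, Psmd9, Psmd4 and Psmb3, with log2 ratios of -1.32, -0.68, -0.49, -0.01 and 0.24. Their median of -0.49 stood beside 0.08 for the 33 detected genes without the letters, a difference over few genes that was not tested. Only Psme1 of the 5 belongs to the PA28 activator. Psmb10, the inducible catalytic subunit among the members, was not one of the 5. The GC box was present in 52.4% of the members' entries and 35.7% of all entries, with median log2 ratios of -0.15 over the 22 detected genes with it and 0.12 over the 16 without. The CCAAT box, searched as CCAAT on both strands, was present in 35.7% and 37.4%. A match is a string of letters and says nothing of binding in these cells.

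Alpha subunits of the core went both ways, with log2 ratios from -0.66 to 0.66 on the brightest probe sets. Of the 8 alpha genes 7 were detected, with a median log2 ratio of -0.18, and 2 had ratios above 0. Psma6 was the highest member of all 47, at 11067 without and 17541 with triptolide, a 1.58-fold difference. Its second brightest probe set had a log2 ratio of 0.54 and a dimmer one had -0.14. Psma1 followed at 5754 and 7379 (log2 ratio 0.36). Its dim second probe set went from 307 to 151 (log2 ratio -1.03), so the direction of Psma1 depends on the probe set. Psma3 was lowest at 10922 and 6914, a 1.58-fold lower signal, and its second probe set was also lower, with a log2 ratio of -0.49. Psma5 was nearly as low at 5993 and 4044 (log2 ratio -0.57). Psma6 and Psma3, subunits of the same ring, thus lay at opposite ends of the class.

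Among beta subunits all 8 detected of 9 genes lay within 1.5-fold, with a median log2 ratio of 0.01. Psmb5, which carries the chymotrypsin-like activity that proteasome inhibitor drugs target, had signals of 4093 without and 4855 with triptolide (log2 ratio 0.25). Psmb6, the caspase-like subunit, had signals of 3521 and 3810 (log2 ratio 0.11). Psmb7, the trypsin-like subunit, had 10269 and 9587 (log2 ratio -0.10). All the constitutive catalytic genes therefore lay within 1.2-fold of the stimulated array in the deposited signals. Psmb10, the interferon-inducible subunit that takes the place of Psmb7 in the immunoproteasome, was the lowest of the class, at 1674 and 1128 (log2 ratio -0.57). The noncatalytic Psmb1 came next, at 6577 and 4776 (log2 ratio -0.46), and a dim further probe set of it was above the floor only without triptolide. Psmb4, also noncatalytic, had 9770 and 8798 on its brightest probe set and 5051 and 5364 on the other, so its direction depends on the probe set. Psmb3, another noncatalytic subunit, was among the highest, at 5091 and 6027, and both its probe sets were higher, with log2 ratios of 0.24 and 0.37.

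Of the 6 ATPase genes of the 19S base, 1, Psmc6, was at least 1.5-fold lower, against 26.9% of all detected genes. Psmc6 had signals of 6189 without and 2587 with triptolide, a 2.39-fold lower signal on its brightest probe set. A dimmer probe set of Psmc6 went from 505 to 427, a log2 ratio of only -0.24, and a further one was below the floor on both arrays. The size of the Psmc6 difference therefore rests on 1 probe set, while its direction was shared by both that were measured. Psmc3 had 3454 and 2465 (log2 ratio -0.49). The other ATPase genes, Psmc1, Psmc2, Psmc4 and Psmc5, had log2 ratios between 0.03 and 0.22 on their brightest probe sets. Psmc2 was the highest of these, at 5449 and 6354, although a dim probe set of it had a log2 ratio of -0.49. Psmc5 was close to it, at 3574 and 4107. For Psmc4 the brightest probe set gave 0.15 and the second 0.91.

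The base ATPases are known to assemble in pairs, each held by its own chaperone, and this grouping was set beside the values after they were seen. Psmc6 and Psmc3 form such a pair with Psmd9. Psmd9 was the lowest of the base chaperones, with signals of 636 and 454.5 (log2 ratio -0.49), so all 3 genes of that module lay below the array's median log2 ratio of -0.16. Psmc1 and Psmc2 pair with Psmd5, the highest of the base chaperones, at 1521 without and 2100 with triptolide (log2 ratio 0.46). All 3 genes lay above the array's median, and above 0 in the deposited signals, on their brightest probe sets. After scaling on housekeeping genes Psmc1 had a log2 ratio of -0.10. Psmc4 and Psmc5 pair with Psmd10, also called gankyrin, whose signals were 1246 and 1024 (log2 ratio -0.28). That module was mixed. With a spread of 0.35 (log2) between probe sets of the same member, single values of 0.3 to 0.5 are within what another probe set could give.

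The scaffolds and ubiquitin receptor of the base showed small ratios. Psmd2, a scaffold subunit, had signals of 5867 and 6935 (log2 ratio 0.24), and Psmd1, the other scaffold, 2784 and 2134 (log2 ratio -0.38). Psmd4, the ubiquitin receptor, was level on its brightest probe set at 4746 and 4725, and the next brightest had a log2 ratio of 0.27.

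All 8 lid genes were detected, with a median log2 ratio of -0.10, and 2 were at least 1.5-fold lower, a share near the 26.9% of all detected genes. Psmd3 was the lowest at 2320 without and 1442 with triptolide, a 1.61-fold lower signal on its single probe set. Psmd7, which partners the lid's deubiquitinase, was at 2987 and 1982, a 1.51-fold lower signal. A dim probe set of it went from 205 to below the floor, at least 1.73-fold lower, and another went from 88.2, below the floor, to 125.9. Psmd14, the metalloprotease that cleaves ubiquitin chains off substrates, had 7202 and 5749 (log2 ratio -0.33). The highest lid gene was Psmd13, at 1675 and 2168 (log2 ratio 0.37), with 0.27 on a second probe set. Psmd12 was next at 2925 and 3139. Psmd11, a scaffold of the lid, had 8 probe sets, of which 4 were above the floor on both arrays. The brightest went from 6856 to 5862, and the 3 brightest had log2 ratios between -0.23 and -0.05, while the dimmest went from 1107 to 2270, a log2 ratio of 1.04. That was the only member probe set at least 2-fold higher.

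Activators had a median of -0.47 over 3 genes, the lowest of the classes on the brightest probe sets but not when each gene was given the median of its probe sets (-0.17, against -0.33 for the alpha ring and -0.28 for the base chaperones) or without shared probe sets (-0.18, against -0.22 for the lid), and none had a brightest probe set above 0. Psme1, a subunit of the interferon-inducible PA28 activator, had signals of 12349 without and 7711 with triptolide, a log2 ratio of -0.68 on its single probe set. Psme4, the PA200 activator of the nucleus, had 1925 and 1389 (log2 ratio -0.47), but its other measured probe sets gave 0.14 and -0.27. Psme3, the nuclear PA28 form, had 2850 and 2523 (log2 ratio -0.18) and a second probe set at 0.13. Psme1 is thus the only activator whose measured probe sets all lay below 0, and it has only 1.

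The genes that build the core particle held the lowest ratios of the whole set. Psmg1 to Psmg4 encode chaperones that work as heterodimers, Psmg1 with Psmg2 and Psmg3 with Psmg4, to assemble the alpha ring. Psmg2 had signals of 2025 without and 824 with triptolide, a 2.46-fold lower signal. Its second bright probe set was close to this, at 2032 and 815 (log2 ratio -1.32), and a dim further one went from 181 to below the floor. Psmg4 had 980 and 393, a 2.50-fold lower signal on the only probe set above the floor. Their partners did not share this: Psmg1 had 2211 and 2677 (log2 ratio 0.28), and Psmg3 had 897 and 995.5 (log2 ratio 0.15). Within each heterodimer, then, 1 gene was more than 2-fold lower and the other slightly higher. Psmf1, the proteasome inhibitor also called PI31, was the highest of this class at 1267 and 1581 (log2 ratio 0.32), and its dimmer probe sets were higher as well, at 0.53 and 0.60. Of the genes named for a partner, Psmc3ip had 609 and 652 (log2 ratio 0.10) and Psme3ip1 1284 and 1860 (log2 ratio 0.53).

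**Figure D3:**
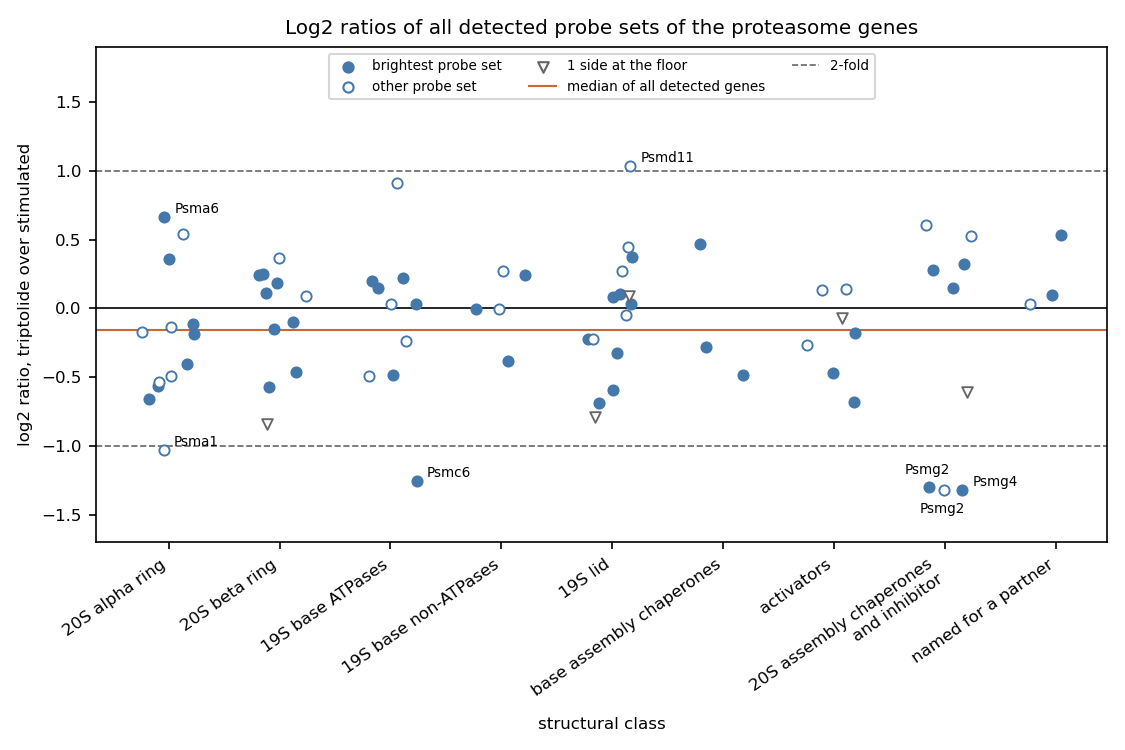
Log2 ratio of triptolide over stimulated for the 76 member probe sets above the floor on at least 1 array, by structural class, with filled circles for the brightest probe set of a gene, open circles for its others and triangles where 1 side was at the floor. The dashed lines mark 2-fold and the coloured line the median of all detected genes, -0.16; the points past 2-fold are labelled, together with the highest gene, Psma6.

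Probe sets of the same gene gave a view of technical precision only. Of the 100 member probe sets 71 exceeded the floor on both arrays, 5 on 1 array and 24 on neither. Of the 76 detected probe sets, 1 was at least 2-fold higher and 5 at least 2-fold lower, against 5.69% and 12.8% of all detected probe sets. In the 19 members with at least 2 probe sets measured on both arrays, the brightest pair differed with an SD of 0.35 per probe set (log2), against 0.49 over all 3733 such genes. In 8 of these 19 members probe sets lay on both sides of 0, namely Psma1, Psma6, Psmb4, Psmc2, Psmd4, Psmd11, Psme3 and Psme4. Of the members past 2-fold, Psmg2 had 2 bright probe sets of nearly the same ratio, Psmc6 had probe sets of unequal size and Psmg4 had 1.

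The scaling of the arrays moved every ratio by the same or nearly the same amount, and it decides whether more members lie above or below 0. Each of the 4 scalings sets the arrays level on some set of genes or probe sets, so none measures mRNA per cell. The deposited signals appear to have been scaled on the first 100 listed probe sets, whose 2% trimmed mean was 2000.0 on both arrays, and these include probe sets of the members Psma1, Psmb5 and Psmc5. The median log2 ratio of the members was -0.23 after scaling on housekeeping genes, 0.01 after quantile normalization and 0.12 after centring on the median of detected probe sets. The median of all detected genes moved with it, to -0.27, 0.01 and 0.04. Psmc6, Psmg2 and Psmg4 were at least 2-fold lower under each of these scalings and no member was at least 2-fold higher. At 1.5-fold, 0 members were higher and 13 (28.9%) lower on housekeeping genes, against 10.2% and 32.3% of all detected genes under that scaling. After quantile normalization 3 members (6.67%) were higher and 3 lower, against 19.5% and 19.1%. After centring 4 (8.89%) were higher and 3 (6.67%) lower, against 20.3% and 18.4%. The share of lower members was thus close to that of all genes on housekeeping scaling and below it under the others. Of the 45 members 33 kept the sign of their ratio under all 4 scalings, 18 of them below 0 and 15 above. The activators and the base chaperones had class medians below 0 under all 4 scalings, from -0.60 to -0.25 and from -0.41 to -0.06, whereas those of the alpha, beta, ATPase, scaffold and lid classes changed sign.

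**Figure D4:**
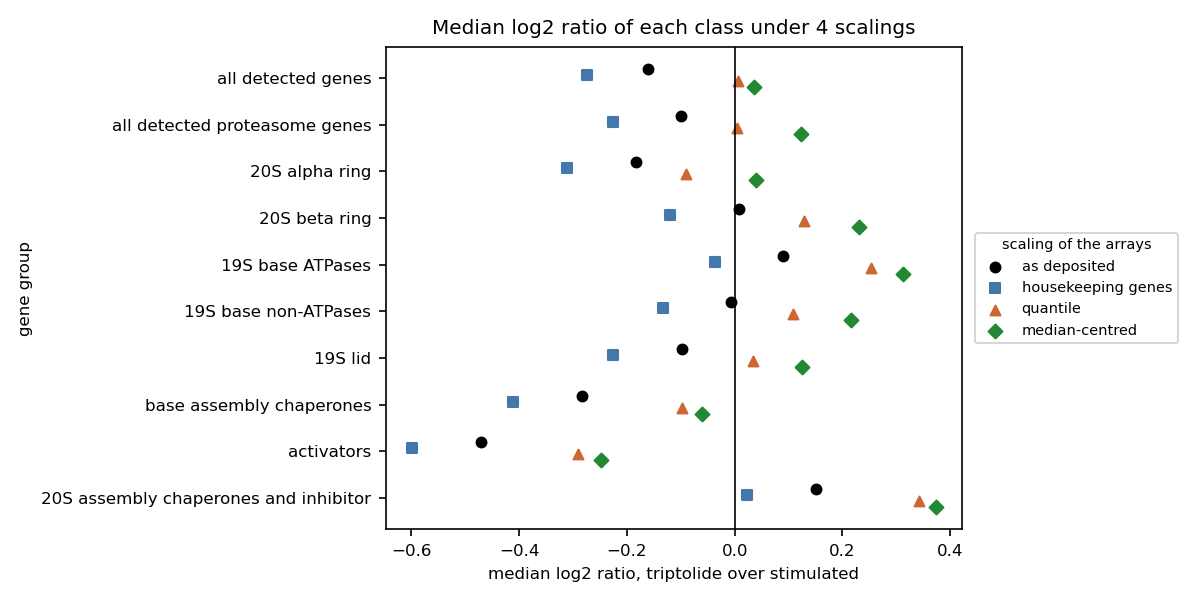
Median log2 ratio of triptolide over stimulated for all detected genes, all detected proteasome genes and each structural class, with a symbol for each of 4 scalings of the arrays. All groups shift together, the activators stay below 0 and the chaperones of core assembly with the inhibitor stay above 0, although Psmg2 and Psmg4 in that class are at least 2-fold lower under each scaling.

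Other genes of the ubiquitin-proteasome pathway were mostly within 2-fold too. Of 33 listed genes 24 had a probe set of their own, all detected, and their median log2 ratio was -0.05. No gene of the list was at least 2-fold higher, against 5.63% of all detected genes, and 1 was past that limit on the lower side, against 12.5%. It was Ecpas, a scaffold that tethers the 19S cap to the core, with signals of 1453 without and 465 with triptolide, a 3.13-fold lower signal. All 4 of its probe sets were at least 2-fold lower, with log2 ratios of -1.64 and -1.62 on the brightest pair. Akirin2, an adaptor for nuclear import of proteasomes, was next at 3030 and 1580, a 1.92-fold lower signal that passed 2-fold on housekeeping scaling, and Uba6, a ubiquitin-activating enzyme, was at 732 and 424. The highest were Nfe2l2 at 1373 and 2291, a 1.67-fold higher signal, Bag6 at 1120 and 1775, and the arsenite-inducible Zfand2a at 447 and 613. A dimmer Zfand2a probe set was lower, with a log2 ratio of -0.98. Nfe2l1, the main transcription factor of proteasome recovery, had 461 and 604 (log2 ratio 0.39). Pomp, the maturation factor of the core that works after the Psmg chaperones, had 7556 and 8875 (log2 ratio 0.23), and the small lid subunit Sem1 5665 and 5860 (log2 ratio 0.05). A second Sem1 probe set of similar brightness was lower, with a log2 ratio of -0.29, so the direction of Sem1 depends on the probe set.

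Genes linked to the interferon-inducible subunits were set beside Psmb10 and Psme1, with 5 of 6 listed genes measured. Ifng, which encodes interferon-gamma, was 4.50-fold lower, from 2124 to 472, and its receptor gene Ifngr1 2.36-fold lower, from 2148 to 909. The interferon-induced factor Irf1 was higher at 4333 and 5679 (log2 ratio 0.39), as was the peptide transporter Tap2 at 888 and 1414 (log2 ratio 0.67), and the MHC class I activator Nlrc5 was at 2761 and 2438 (log2 ratio -0.18). The inducible proteasome genes and these genes thus did not share a direction.

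**Figure D5:**
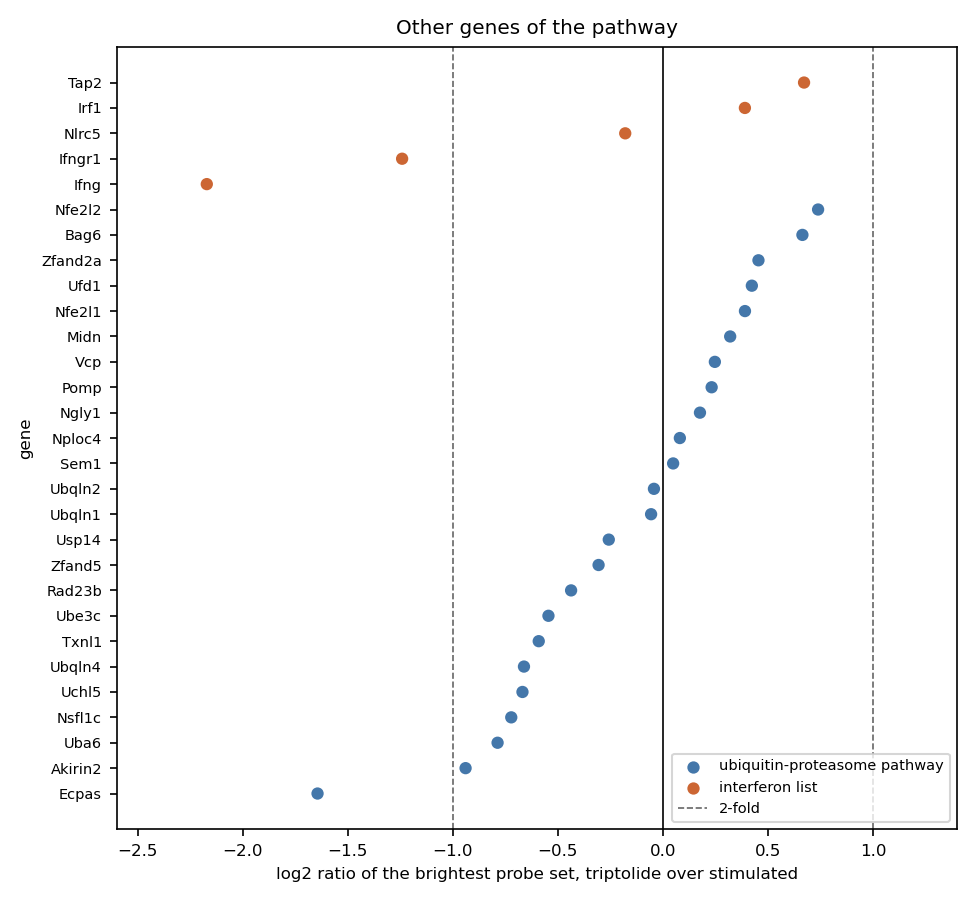
Log2 ratio of triptolide over stimulated on the brightest probe set for 24 other genes of the ubiquitin-proteasome pathway and 5 genes of the interferon list, sorted within each list. The dashed lines mark 2-fold; Ecpas, Ifng and Ifngr1 lie past it on the lower side and no gene lies past it on the higher side.

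Markers were read for the identity of the cells. Of 12 T cell markers 11 were measured and all were detected on both arrays, with a median log2 ratio of -0.47, 2 ratios above 0 (Cd3e and Cd3g) and 9 below. Their summed signal went from 53016 without to 35038 with triptolide, and 5 markers (Cd8a, Cd28, Cd2, Lat and Cd4) were at least 2-fold lower, against 12.5% of all detected genes. B cell markers (6 of 8 detected) summed to 5123 and 3233, a sum carried by Ighm, with 5 detected ratios below 0, Cd79a 1.93-fold higher and Pax5 below the floor. Myeloid markers (5 of 8 detected) summed to 5130 and 7139, a sum carried by Ctss. All 5 detected ones had ratios above 0, Lyz2 was at least 2.19-fold higher, and Cd14 and Itgam were below the floor. No erythroid marker was detected. In bulk RNA fewer cells of a type and less RNA per cell cannot be told apart, and the part of these markers in the proteasome ratios was not tested.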

How the data were processed

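Total RNA of 2 samples was hybridised to 1 array each. The intensities that the authors deposited are linear MAS5 signals, 1 for each probe set of an array, and MAS5 is named in the submitters' processing notes. The sources used here give neither its version nor its scaling. Of 45037 probe sets, 34945 had 1 gene symbol in the platform annotation, 932 had more than 1 and 9160 lacked one, and only probe sets with 1 symbol were used; 34741 were matched by gene number to RefSeq's table of GRCm38.p6, which gave the symbol. The floor was the 95th percentile of 87 chemosensory receptor probe sets on the array where it was higher, and lower signals were raised to it before taking log2 ratios. A fold with 1 side at the floor is written "at least". Array number limits the precision: there is no error between cultures. Members, lists, motifs and limits were chosen with earlier results of these data known. Both signals were named for members past 1.5-fold, the 2 highest and 2 lowest of each class, the catalytic subunits, Psmd14 and members whose probe sets oppose each other, and for pathway genes past 2-fold and the 3 highest and 3 lowest; other values were picked after they were seen. The planned comparison of protein sequences was not run because no protein table was used here. Calculations used Python 3.11.15 with pandas 2.3.3 and numpy 2.4.6 and were tested on simulated data. Alternatives were 3 other scalings (11 of 15 listed housekeeping genes were measured), floors of 59.2 and 237, a pseudocount of 32 without a floor, the median over probe sets, leaving out shared probe sets, and brighter genes only. Shared probe sets here are those whose names end in _x_at, _s_at or _a_at, and the _a_at kind can match several transcripts of a single gene.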

Additional observations from a re-analysis of the deposited data

How the results depend on the processing

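Results were recomputed under 9 alternatives, and under 1 more that was chosen after seeing the data (without Psmc3ip and Psme3ip1). Members at least 1.5-fold higher, 1 as deposited, numbered 4 after centring on the median, 3 after quantile normalization, and 0 on housekeeping genes, with the median over probe sets and without shared probe sets. The last 2 of these take Psma6 at another value than that of its brightest probe set, and without shared probe sets 36 members remain. Members at least 1.5-fold lower, 7 as deposited, numbered 3 after centring, 3 after quantile normalization and 13 on housekeeping genes. Genes of the ubiquitin-proteasome list at least 2-fold lower, 1 as deposited, numbered 2 on housekeeping genes, where Akirin2 joined Ecpas. Of the other values for members as a whole, classes and that list with or without the interferon list, none moved by more than 1.5 times (counts) or by 0.49 (medians, the SD between probe sets of a gene). Members at least 2-fold lower stayed at 3, except for 2 with the median over probe sets, where Psmc6 had a log2 ratio of -0.75, and 2 without shared probe sets, where Psmc6 was not detected. The bright probe set of Psmc6 is of the _a_at kind and was left out in the latter. Of 439 values of single members, 436 moved by less than 0.49. The others were Psmc6 and Psma1 (-0.33) with the median over probe sets and Psme4 (0.14) without shared probe sets. Many of the 436 could not move, so their number is no measure of stability. All detected members lay above both other floors on both arrays. Their values were therefore unchanged under those floors, with brighter genes only and without Psmc3ip and Psme3ip1. With 1 array per group no replicate could be left out, and variation between cultures is not covered. No paired analysis was possible because each group has 1 array.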
